A study of Homo sapiens with 4 samples.

Results

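Retinoic acid synthesis and its receptors were followed through 9 genes: the retinal dehydrogenases ALDH1A1 and ALDH1A3, the retinal reductase DHRS3, the carrier protein CRABP2, and the receptors RARA, RARB, RARG, RXRA and RXRB. The genes were chosen by symbol, for their place in the pathway, with earlier results of these data known. All 9 were found among the 57773 gene IDs listed, and 8 of them were among the 16090 genes with enough counts to be tested. RARB was the one left out.

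Polyadenylated RNA was sequenced from MIA-PaCa2, a line derived from a human pancreatic cancer, in 2 untreated libraries and in 2 libraries of cells resistant to AMG510. This compound, also named sotorasib, is a small-molecule targeted cancer drug. The resistant cells came from culture under a rising dose of the drug for 2 months that ended at 5 µM. Both groups share the parental line and a medium with fetal calf serum, itself a source of retinol. One label of resistant replicate 2 gives the drug as AMG511, while its title names AMG510; whether drug was present at harvest, and whether a population descends from 1 clone, is not stated in the labels.

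Library totals ran from 30146559 to 38052558 expected counts, and 3 counts, the level that a count of 0 still allows, corresponded to 0.0801 to 0.104 CPM (counts scaled to library size). Floors of this kind cover counting error only. The labels do not say how the replicates were cultured, so each p-value speaks only of the spread among these 4 libraries, which may be technical. Of the 5 epithelial markers, the keratins KRT8, KRT18 and KRT19 were abundant, whereas EPCAM (1.33 to 2.09 CPM) and CDH1 (0.622 to 1.21 CPM) were near the bottom of the range, so the epithelial label rests on the keratins here. The summed epithelial marker level was 3955 to 5635 CPM in untreated and 2055 to 2620 CPM in resistant libraries, with KRT8 and KRT18 called lower. The KRT18 call was lost without untreated replicate 1 (edgeR, adjusted p = 0.0825) or resistant replicate 1 (0.0736). The 4 matched markers of other cell types summed to 7.64 to 8.95 CPM in untreated and 4.66 to 4.86 CPM in resistant libraries, and CD3E was at 0 counts in 3 of the 4 libraries. Among them CD14, a monocyte marker, was called lower, from 6.06 to 1.63 CPM on average, while ACTA2, a smooth muscle marker, went from 1.52 and 2.72 to 3.04 and 3.05 CPM (log2 fold change 0.52) and was not called. ACTA2 is overlapped on the opposite strand by STAMBPL1 (8.4 CPM, log2 fold change 0.99, called higher) and FAS (4.17 CPM, -0.12, not called). The ACTA2 value is therefore uncertain. The part of these marker differences in the results below was not tested. In bulk RNA, fewer cells carrying a transcript and less transcript per cell cannot be told apart.

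Retinol taken from serum is oxidised in the cell to retinal, and retinal is oxidised irreversibly to retinoic acid by the ALDH1A enzymes. DHRS3 runs the first step backwards by reducing retinal to retinol, and CRABP2 carries retinoic acid to the nucleus. There a retinoic acid receptor (RAR) paired with a retinoid X receptor (RXR) binds direct repeats of a short hexamer and represses or activates the gene, depending on the ligand. ALDH1A activity is also widely used to mark stem-like cells in pancreatic and other carcinomas, and RARB is a textbook retinoic acid target that is often silent in carcinomas.

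The DNA just before the transcription start is shown for RARB, which was at or under the floor, and for ALDH1A1 and ALDH1A3, which gave nearly all ALDH1A transcript and differed widely in level. The windows are the 250 bases upstream of a RefSeq start (GRCh38.p14), read 5′ to 3′ on the strand of the gene. That of RARB lies at chr3:25428013-25428262 on the plus strand, that of ALDH1A1 at chr9:72953054-72953303 on the minus strand, and that of ALDH1A3 at chr15:100879581-100879830 on the plus strand. Capitals in the RARB window mark a direct repeat of the receptor hexamer with 5 bases between the copies (DR5). Capitals in the ALDH1A windows mark a CCAAT box, searched as CCAAT on both strands.
RARB: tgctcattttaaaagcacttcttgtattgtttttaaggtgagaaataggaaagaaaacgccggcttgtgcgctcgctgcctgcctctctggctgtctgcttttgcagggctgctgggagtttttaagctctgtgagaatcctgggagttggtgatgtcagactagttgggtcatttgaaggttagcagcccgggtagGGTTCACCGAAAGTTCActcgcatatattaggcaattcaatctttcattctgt
ALDH1A1: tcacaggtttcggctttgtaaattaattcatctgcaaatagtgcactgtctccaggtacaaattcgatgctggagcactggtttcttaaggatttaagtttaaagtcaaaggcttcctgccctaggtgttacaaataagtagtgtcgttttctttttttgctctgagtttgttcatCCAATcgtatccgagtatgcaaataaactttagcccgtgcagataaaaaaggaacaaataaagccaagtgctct
ALDH1A3: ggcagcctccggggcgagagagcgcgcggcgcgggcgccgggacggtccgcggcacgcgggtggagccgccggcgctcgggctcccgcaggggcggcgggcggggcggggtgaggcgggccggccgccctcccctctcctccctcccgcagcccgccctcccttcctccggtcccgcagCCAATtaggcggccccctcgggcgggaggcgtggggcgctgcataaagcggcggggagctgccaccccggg

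RefSeq gives 4 upstream windows for RARB, and only the 1 shown held a DR5. This element, GGTTCACCGAAAGTTCA, lay on the plus strand between bases 53 and 37 before that start. It was the only DR5 among the 18 upstream windows that RefSeq gives for the 9 genes, and 26 of the 35116 windows of all genes (0.074%) held one. Repeats spaced by 2 or 1 bases were in 0 of the 18 windows, against 0.0313% and 0.0968% of all windows. The single hexamer (written AGGTCA, with G allowed as first base and T as the third, on either strand, and contained in the repeats) was in 8 of the 18 windows and in 33.8% of all windows. The ALDH1A windows differed in base composition: 38.4% of the ALDH1A1 window was G or C, against 82.4% for ALDH1A3 and a median of 58% over all windows. The ALDH1A3 window held 6 GC boxes (GGGCGG on either strand) and the ALDH1A1 window 0. The RARG window had a G and C share of 69.6%. A match to letters describes the window and shows no binding.

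Resistant cells had less ALDH1A3 and more RARG transcript than untreated cells, and the other 6 tested genes were not called. In edgeR's quasi-likelihood test, adjusted over all tested genes by the Benjamini-Hochberg method, 2 of the 8 tested members passed an adjusted p of 0.05, or 25%, against 34% of all 16090 tested genes. In each direction it was 1 of 8, where 16.6% of all tested genes were called higher and 17.4% lower. The median log2 fold change of the 8 was -0.01, as over all tested genes. The values of both groups did not overlap in 4 of the 8, and in 70.9% of all tested genes. The share called rests on 2 of 8 genes and is not read as lower than that of all tested genes. Both changes that passed were below 2-fold.

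**Figure D1:**
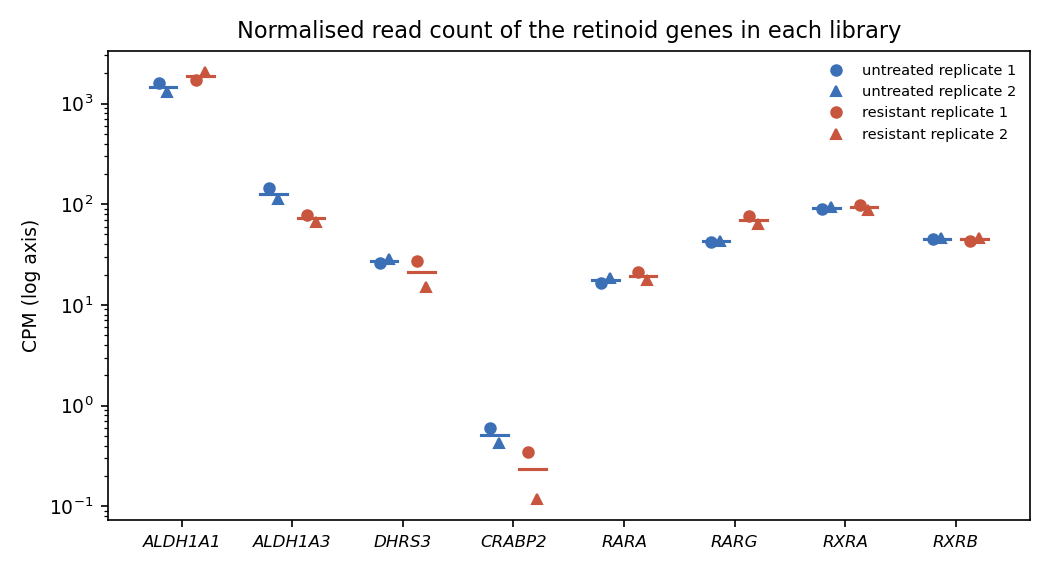
Normalised read count (CPM, log axis) of the 8 tested retinoid genes in each library; circles are replicate 1, triangles replicate 2 and bars the group means. ALDH1A1 lies at or above 1311 CPM in all 4 libraries and CRABP2 at or below 0.596 CPM, and both resistant libraries lie below both untreated ones for ALDH1A3 and above them for RARG.

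ALDH1A1 (ENSG00000165092, chromosome 9), a cytosolic retinal dehydrogenase, was the most abundant member. It stood at 1612 and 1311 CPM in untreated replicates 1 and 2, and at 1718 and 2051 CPM in resistant replicates 1 and 2. Both resistant libraries were above both untreated ones, yet resistant replicate 1 was only slightly above untreated replicate 1. Means were 1461 ± 213 and 1885 ± 236 CPM (SD, n = 2). The log2 fold change of 0.37 (SE 0.18, 95% interval -0.03 to 0.77) did not pass the test (edgeR, adjusted p = 0.143).

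ALDH1A3 (ENSG00000184254, chromosome 15), the second retinal dehydrogenase expressed in this line, moved the other way. It had 144 and 111.5 CPM in the untreated libraries and 78.4 and 67.2 CPM in the resistant ones. Each resistant library lay below each untreated one, and the gap between the groups was wider than the gap within either. ALDH1A3 fell from 128 ± 22.7 to 72.8 ± 7.86 CPM (SD, n = 2), 1.75-fold, with a log2 fold change of -0.81 (SE 0.18, interval -1.20 to -0.42, edgeR adjusted p = 0.00612). The call was lost without untreated replicate 1, the library with the higher level (log2 fold change -0.59, adjusted p = 0.0609). An antisense transcript, ALDH1A3-AS1, overlaps the gene at 1.16 CPM, and without a stated strand setting the reads of both may have been pooled.

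The remaining retinal dehydrogenase of the ALDH1A family, ALDH1A2, had 0, 15, 5 and 2 counts in the 4 libraries and was not tested. Corrected for the length of the longest transcript, ALDH1A1 made up 95.4% and 95.6% of ALDH1A transcripts in the untreated libraries and 97.6% and 98.3% in the resistant ones. ALDH1A3 made up 4.57% and 4.37%, and then 2.39% and 1.73%. The groups did not overlap in this share, but 2 libraries against 2 cannot give a two-sided exact permutation p below 0.33.

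DHRS3 (ENSG00000162496, chromosome 1), which returns retinal to retinol and is itself induced by retinoic acid, differed between the resistant libraries. It stood at 25.9 and 28.7 CPM in the untreated libraries, 27.1 CPM in resistant replicate 1 and 15.1 CPM in resistant replicate 2. Resistant replicate 1 lay inside the untreated range, while resistant replicate 2 was the lowest of all 4. The ratio of replicate 1 to replicate 2 was 1.80 in the resistant group and 0.905 in the untreated group, the widest gap between replicates among members above 1 CPM. Over all 4 libraries the log2 fold change was -0.37 (SE 0.26, interval -0.96 to 0.22, edgeR adjusted p = 0.304). Without resistant replicate 1 it was -0.84 and was called (adjusted p = 0.0151), and without resistant replicate 2 it was -0.01.

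CRABP2 (ENSG00000143320, chromosome 1), the carrier that hands retinoic acid to the receptors, was close to the floor. It had 22 and 16 counts in the untreated libraries and 10 and 4 in the resistant ones, or 0.596, 0.427, 0.345 and 0.118 CPM. Both resistant libraries were lower, but at these counts the interval of the log2 fold change ran from -2.68 to 0.37 around -1.16 (edgeR, adjusted p = 0.222). The 2 resistant libraries differed 2.91-fold from each other. With a single library left out at a time, the log2 fold change lay between -2.07 and -0.56.

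Among the retinoic acid receptors, RARG (ENSG00000172819, chromosome 12) was the most abundant and the one called. It had 41.9 and 43.4 CPM in the untreated libraries and 75.9 and 64.2 CPM in the resistant ones. The untreated libraries were nearly equal and both resistant ones were well above them. RARG rose from 42.7 ± 1.04 to 70.0 ± 8.28 CPM (SD, n = 2), 1.64-fold, with a log2 fold change of 0.71 (SE 0.16, interval 0.36 to 1.07, edgeR adjusted p = 0.0073). It was called whichever of the 4 libraries was left out, with an adjusted p of at most 0.0397.

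RARA (ENSG00000131759, chromosome 17), the receptor that is broadly expressed and is fused to PML in promyelocytic leukaemia, had 16.5 and 18.7 CPM in untreated and 21.4 and 17.6 CPM in resistant libraries. Resistant replicate 2 lay between the untreated libraries, so the groups overlapped. Its log2 fold change was 0.15 (interval -0.31 to 0.61, edgeR adjusted p = 0.622), and RARA-AS1 overlaps it on the opposite strand at 2.62 CPM. RARB (ENSG00000077092, chromosome 3), which has the DR5 in 1 of its 4 upstream windows, had 0 and 1 counts in the untreated libraries and 0 in both resistant ones. It was thus at or under the floor of 3 counts in every library, and no fold is given. TOP2B lies across from part of RARB on the opposite strand at 108 CPM, so even the single count is uncertain.

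Per length of the longest transcript, RARG made up 72.3% and 70.5% of RAR transcripts in the untreated libraries and 78.5% and 78.9% in the resistant ones. RARA made up nearly all of the rest, from 21.1% to 29.5%. The RARG share was thus higher in each resistant library than in each untreated one, and its group means were 71.4% ± 1.32 and 78.7% ± 0.334 (SD, n = 2).

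The RXR partners did not separate the groups. RXRA (ENSG00000186350, chromosome 9) had 90.1 and 94.5 CPM in untreated and 98.1 and 88.0 CPM in resistant libraries. RXRB (ENSG00000204231, chromosome 6) had 44.7 and 46.3 CPM, and then 43.6 and 45.8 CPM. In both genes the groups overlapped. The log2 fold change was 0.01 for RXRA (interval -0.33 to 0.35, edgeR adjusted p = 0.965) and -0.02 for RXRB (interval -0.38 to 0.33, adjusted p = 0.922), and both signs turned under other settings. RXRB is overlapped on the opposite strand by SLC39A7, a zinc transporter at 117 CPM that was called higher (log2 fold change 0.76, adjusted p = 0.00925), so the RXRB value is uncertain. RXRG, the third RXR, had 0 counts in all 4 libraries.

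**Figure D2:**
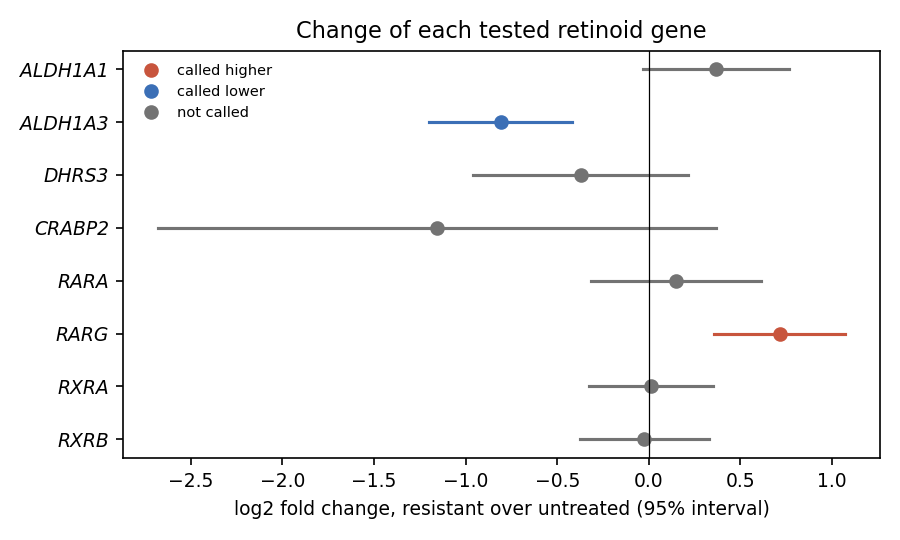
Log2 fold change, resistant over untreated, of the 8 tested retinoid genes with 95% intervals from edgeR's quasi-likelihood fit (n = 2 libraries per group). The interval lies above 0 for RARG and below 0 for ALDH1A3, and it is narrow around 0 for RXRA and RXRB and widest for CRABP2.

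RXRA made up 50.4%, 50.7%, 53.1% and 49.2% of RXR transcripts per length in untreated replicates 1 and 2 and resistant replicates 1 and 2. This share depends on the length used: divided by merged exons instead of the longest transcript, it was 41.8% in untreated and 42.4% in resistant cells on average.

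**Figure D3:**
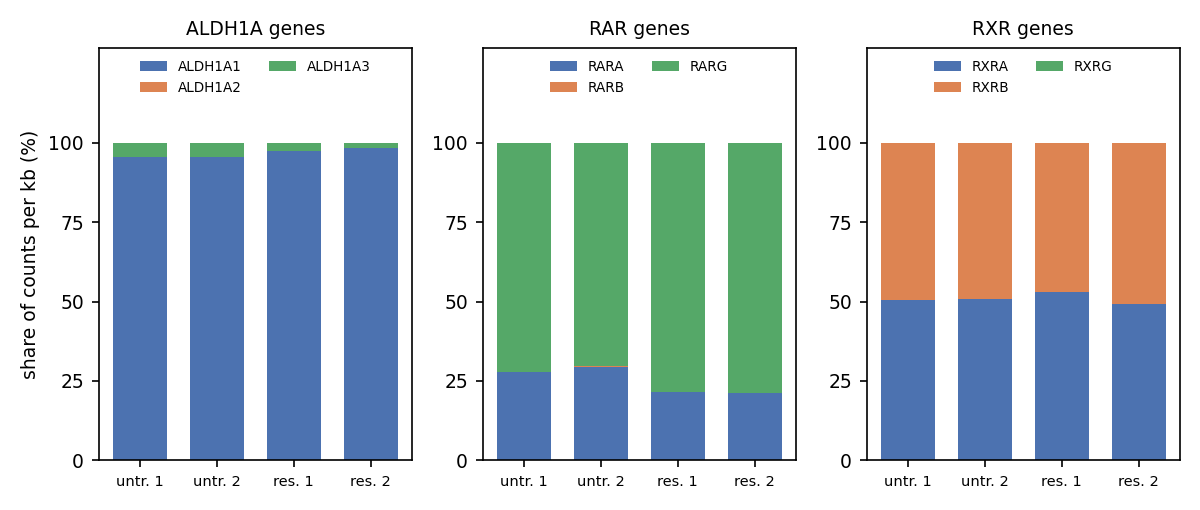
Share (%) of each family's counts per kilobase of longest transcript in each library, for the ALDH1A, RAR and RXR genes. ALDH1A1 fills over 95% of its family in every library, RARG takes 70.5% to 78.9% of the RAR genes, and RXRA and RXRB take similar shares with RXRG at 0.

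On the same scale, CPM per kilobase of the longest transcript, ALDH1A1 led in both groups, with levels of 622.1 to 764.9 in untreated and 815.4 to 973.5 in resistant libraries. In untreated cells ALDH1A3 followed at 28.4 to 36.6. RXRA, DHRS3 and RXRB came next at 15.1 to 16.6 and overlapped each other, and RARG was just below them at 14.2 to 14.7. RARA had 5.42 to 6.14, above CRABP2 and RARB. In resistant cells RARG, at 21.7 to 25.6, stood above ALDH1A3, at 17.1 to 20.0. RXRA, RXRB and DHRS3 followed with overlapping ranges, and RARA, CRABP2 and RARB kept the last places. Per kilobase of merged exons, RARG (12.5 to 14.8) and ALDH1A3 (11.7 to 13.6) overlapped in resistant cells. In untreated cells RXRB (11.4 to 11.8) then stood above DHRS3 and RXRA, and RARG (8.18 to 8.46) overlapped RXRA (8.13 to 8.53), so the order of these genes depends on the length used.

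The lists from here on were chosen with earlier results of these data known, so their shares called are descriptions only. The genes upstream of the enzymes, which take up, bind and store retinol, were mostly too low to test. Of 11 listed, 5 were tested, with 0 called higher and 1 lower (20%, against 34% of all tested genes). The median log2 fold change was -0.44, against -0.01 over all tested genes. The gene that fell was STRA6, the membrane receptor that brings retinol in from its serum carrier and a retinoic acid target as well. It had 37.1 and 36.9 CPM in untreated and 9.56 and 9.65 CPM in resistant libraries. The replicates were almost equal within each group and far apart between them, a log2 fold change of -1.94 (SE 0.19, edgeR adjusted p = 7.63e-05). DGAT1, which esterifies retinol among other lipids, was not called (log2 fold change -0.44, adjusted p = 0.0842). LRAT, the main retinol esterifying enzyme, and the retinol carrier RBP2 had 0 counts in all libraries.

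Of 13 oxidoreductases that interconvert retinol and retinal, 7 were tested, with 0 called higher and 3 lower (42.9%, against 34% of all tested genes), and their median was -0.03. DHRS4, a retinal reductase, had 44.0 and 37.2 CPM in untreated and 19.6 and 25.5 CPM in resistant libraries. The groups did not overlap, and the log2 fold change was -0.85 (adjusted p = 0.00858). That call was lost without untreated replicate 1 (adjusted p = 0.069), and DHRS4 has close paralogs and an antisense gene that may share reads with it. RDH13 (log2 fold change -0.61, adjusted p = 0.0249) and RDH10, the retinol dehydrogenase of the embryo (-0.88, adjusted p = 0.0478), were also called, and each call was lost whichever library was left out, at adjusted p up to 0.137 and 0.178. The RDH10 call was also lost with the replicate number as a block (0.0597), upper-quartile scaling (0.0629) and the stricter filter (0.0516). RPL7, at 781 CPM on the opposite strand, overlaps RDH10, at 6.62 and 3.58 CPM on average, so its value is uncertain. RDH11, the most abundant of the list, was at 78.9 ± 22.3 and 82.7 ± 18.9 CPM (SD, n = 2) and was not called.

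Among the listed genes tested, the largest change was that of ALDH8A1, a dehydrogenase that accepts retinal and also acts in tryptophan breakdown. It had 2.17 and 3.66 CPM in the untreated libraries and 144 and 131 CPM in the resistant ones. Both resistant libraries lay far above both untreated ones, a 47.1-fold difference with a log2 fold change of 5.56 (SE 0.26, edgeR adjusted p = 6.59e-07). In the resistant group its level per kilobase was 51.1 to 56.4, above the 17.1 to 20.0 of ALDH1A3 and below that of ALDH1A1. Its list of 7 other makers, carriers and breakdown enzymes had 4 tested genes, of which 2 were called higher and 0 lower (50%, against 34% of all tested genes). CYP26B1, which degrades retinoic acid and is induced by it, was the other gene called, at 2.26 and 5.06 CPM on average (log2 fold change 1.16, adjusted p = 0.0275). Its call was lost without untreated replicate 1, untreated replicate 2 or resistant replicate 2, at adjusted p up to 0.128. FABP5, a carrier that can bring retinoic acid to PPARD, was not called (log2 fold change -0.61, adjusted p = 0.148), though it was without untreated replicate 2 (adjusted p = 0.0396). CYP26A1 was close to the floor, at 0.217 and 0.454 CPM in untreated and 0.345 and 0.415 CPM in resistant libraries. It was not called either (edgeR, adjusted p = 0.853).

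Among 11 receptors grouped as RXR and its partners, 8 were tested, with 4 called higher and 1 lower (62.5%, against 34% of all tested genes) and a median log2 fold change of 0.54. VDR, the vitamin D receptor, fell from 3.11 to 0.740 CPM on average (log2 fold change -2.07, SE 0.44, edgeR adjusted p = 0.00511). PPARA, a receptor for fatty acids, had 22.1 and 34.2 CPM in untreated and 66.0 and 50.1 CPM in resistant libraries. Its groups did not overlap, and the log2 fold change was 1.04 (SE 0.23, adjusted p = 0.00789). The calls of the thyroid hormone receptor THRA (0.73, adjusted p = 0.0168), the oxysterol receptor NR1H2 (0.62, adjusted p = 0.019) and NR4A1 (1.76, adjusted p = 0.024, named after its values were seen) were each lost without untreated replicate 1 or without resistant replicate 1, at adjusted p from 0.0538 to 0.226. That of NR1H2 was also lost without untreated replicate 2 (0.0875) and that of NR4A1 with the replicate number as a block (0.056). The NR4A1 log2 fold change was 0.97 without resistant replicate 1. THRA and NR1H2 overlap other expressed genes on the opposite strand. Opposite THRA, NR1D1 at 40.0 CPM was itself called higher (log2 fold change 0.81, edgeR adjusted p = 0.00656). MED24, at 66.4 CPM, also overlaps THRA and was not called (log2 fold change -0.43). The THRA value is thus uncertain.

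All 12 corepressors and coactivators that the receptors recruit were tested, with 3 called higher and 2 lower (41.7%, against 34% of all tested genes) and a median of 0.15. TBL1X, a subunit of the NCOR corepressor complexes, rose from 64.8 ± 2.36 to 108 ± 13.5 CPM (SD, n = 2, log2 fold change 0.73, edgeR adjusted p = 0.00619). HDAC3, the deacetylase of the same complexes, had 129 and 130 CPM in untreated and 65.9 and 86.7 CPM in resistant libraries. It was called lower (-0.76, adjusted p = 0.00745), but not without resistant replicate 1 (0.0777). The corepressor NCOR1 was not called (-0.43, adjusted p = 0.0642). The coactivator NCOA3 was called higher (0.74, adjusted p = 0.00835) and the acetyltransferase CREBBP lower (-0.53, adjusted p = 0.0221). The NCOA3 call was lost without untreated replicate 1 (0.0655), and that of CREBBP without untreated replicate 1, untreated replicate 2 or resistant replicate 1, at adjusted p up to 0.168.

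Genes known as retinoic acid targets moved in both directions. Of 16 listed, 10 were tested, with 5 called higher and 2 lower (70%, against 34% of all tested genes) and a median of 0.85. The groups did not overlap in 8 of the 10, against 70.9% of all tested genes. This list too was chosen with earlier results known, so these shares are descriptions and no test. TGM2, transglutaminase 2 and a classical retinoid-induced gene, had 714 and 523 CPM in untreated and 94.2 and 54.9 CPM in resistant libraries. It fell 8.30-fold (log2 fold change -3.05, SE 0.29, edgeR adjusted p = 1.94e-04), and STRA6, given above, was the other gene that fell. RPRD1B lies partly opposite TGM2, at 35.6 CPM on average, far below TGM2 in the untreated libraries but nearer to it in the resistant ones. RPRD1B was itself called lower (log2 fold change -0.71, edgeR adjusted p = 0.00996), so the size of the TGM2 fold is uncertain.

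BHLHE40, a transcriptional repressor of the clock, rose from 16.1 ± 1.92 to 50.02 ± 4.88 CPM (SD, n = 2, log2 fold change 1.64, edgeR adjusted p = 1.94e-04). MEIS2, a homeobox cofactor, had 15.1 and 9.43 CPM in untreated and 35.3 and 48.4 CPM in resistant libraries, with a log2 fold change of 1.77 (adjusted p = 0.00107). PLAAT4, a phospholipase and acyltransferase first described as a retinoid-responsive gene and also induced by interferon, is named after its values were seen. It had 0.514 and 1.79 CPM in untreated and 9.005 and 18.5 CPM in resistant libraries, and its log2 fold change was 3.57 (SE 0.63, adjusted p = 0.00618). These 3 calls and those of TGM2 and STRA6 held whichever library was left out, but the PLAAT4 log2 fold change was 2.96 without untreated replicate 1 or resistant replicate 2 and 4.72 without untreated replicate 2. The other risers were CYP26B1, above, and NRIP1, a corepressor on both lists and also named after its values were seen (0.84, adjusted p = 0.0305), whose call was lost without untreated replicate 2 (0.169) or resistant replicate 2 (0.102). RET was not called (-0.24, adjusted p = 0.646).

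**Figure D4:**
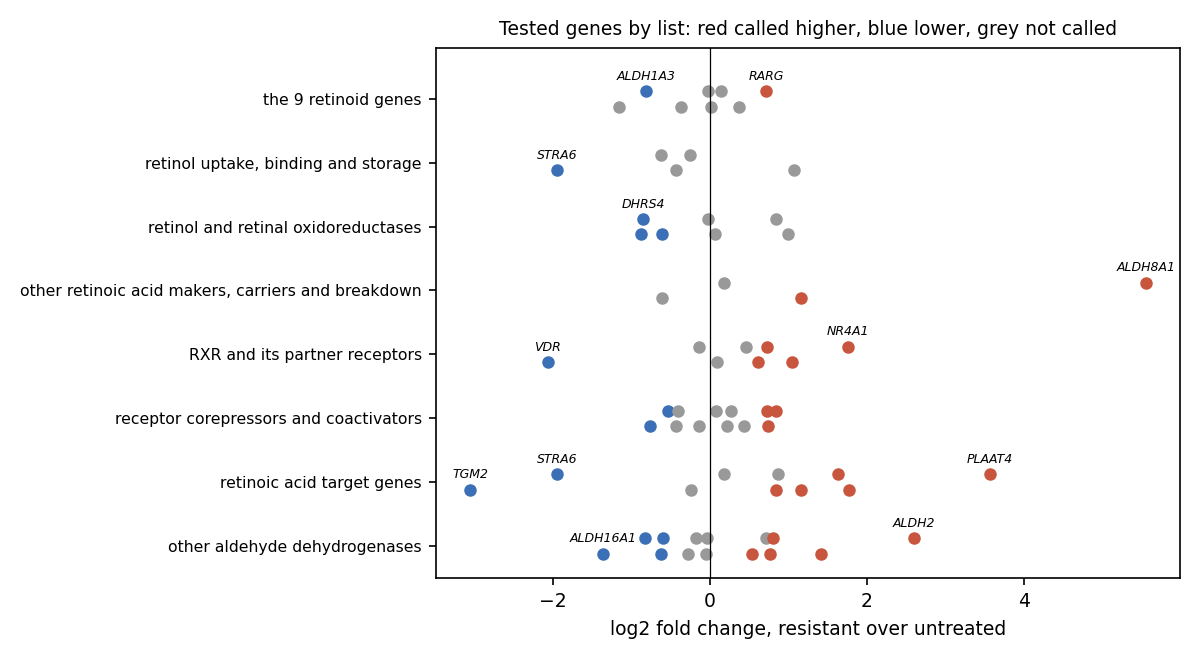
Log2 fold change, resistant over untreated, of the tested genes among the 9 retinoid genes and in 7 related lists; red points were called higher, blue lower and grey not called at an adjusted p of 0.05. ALDH8A1 at 5.56, PLAAT4 at 3.57 and TGM2 at -3.05 lie farthest from 0, and the 8 tested retinoid genes lie between -1.16 and 0.71.

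All 14 other aldehyde dehydrogenases, most of which are known for other aldehydes, were tested, with 5 called higher and 4 lower (64.3%, against 34% of all tested genes) and a median of -0.04. ALDH16A1 fell from 75.2 ± 6.18 to 29.2 ± 1.35 CPM (SD, n = 2, log2 fold change -1.36, edgeR adjusted p = 2.48e-04), and PIH1D1, which overlaps it on the opposite strand, was called lower too. ALDH7A1, which acts in lysine breakdown, rose from 358 ± 15.8 to 627 ± 3.18 CPM (0.81, adjusted p = 0.00368). ALDH1B1, a mitochondrial enzyme that accepts retinal as well as acetaldehyde, fell from 69.0 ± 8.80 to 38.9 ± 4.16 CPM (-0.83, adjusted p = 0.00468). ALDH3B1 was called higher (0.76, adjusted p = 0.0115), though not without untreated replicate 1 (0.0895). ALDH18A1 and ALDH4A1 were not called, at adjusted p of 0.174 and 0.373. ALDH2 (2.60, at 0.188 and 1.17 CPM on average), ALDH3A2 (0.53) and ALDH1L2 (1.42) were called higher, and ALDH9A1 (-0.63) and ALDH5A1 (-0.60) lower. All of these were named after their values were seen, and each call was lost without 1 or more libraries. That of ALDH2 was also lost with the replicate number as a block (0.0927) and with limma-voom (0.0517), and its log2 fold change dropped to 1.34 or 1.99 when resistant or untreated replicate 1 was left out, and reached 3.28 or 3.77 when resistant or untreated replicate 2 was. That of ALDH1L2, 1.42 in all libraries, was 2.18 without untreated replicate 2.

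The position of the 9 genes, which the choice by symbol did not use, gave a further view. Up to 10 tested protein-coding genes on each side were taken as neighbours, and over all tested genes 16.6% were called higher and 17.4% lower. Around ALDH1A1 the median log2 fold change of 20 neighbours was 0.64, with 8 called higher and 1 lower, and the median of all of chromosome 9 was 0.04. Around RXRB it was 0.44, with 9 of 20 higher and 2 lower, and that of chromosome 6 was -0.09. Around RARG it was -0.06, with 0 of 20 called higher and 7 lower, while RARG itself rose; the median of chromosome 12 was -0.04. Around ALDH1A3, near the end of its chromosome, 17 neighbours had a median of -0.17, with 1 higher and 2 lower, and that of chromosome 15 was -0.11. The other 5 genes had neighbourhood medians between -0.23 and 0.08.

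**Figure D5:**
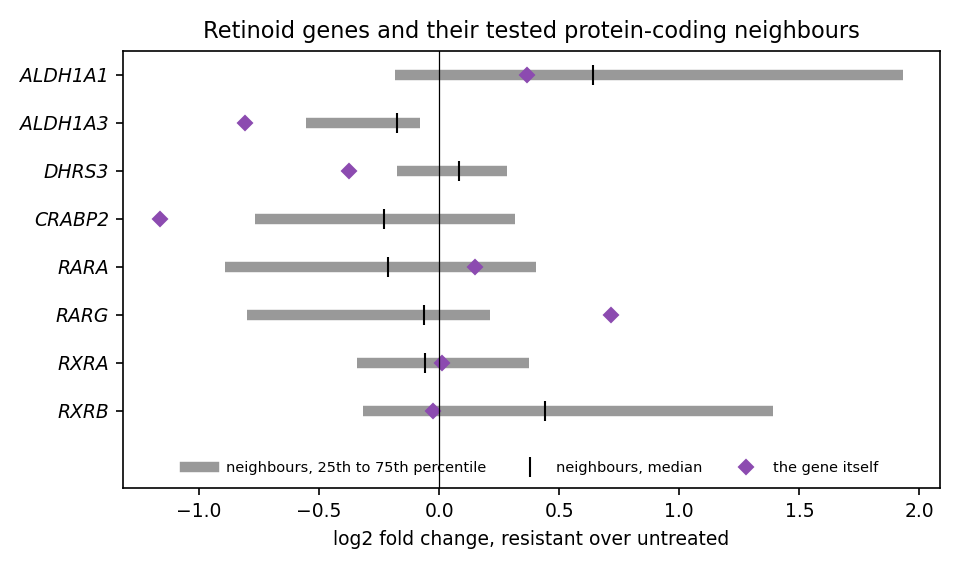
Log2 fold change, resistant over untreated, of each tested retinoid gene (diamond) beside its tested protein-coding neighbours (grey bar from the 25th to the 75th percentile, tick at the median). RARG lies above the bar of its neighbours, ALDH1A3, DHRS3 and CRABP2 lie below theirs, and the other 4 genes lie within.

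The tested genes whose pattern over the 4 libraries lay closest to that of ALDH1A3, by Euclidean distance of centred log2(CPM + 0.5), were PDCL3 at 0.0354, KLHL25 at 0.0388 and SLAIN1 at 0.0405. PDCL3 had 30.7, 23.7, 16.1 and 13.8 CPM in untreated replicates 1 and 2 and resistant replicates 1 and 2. KLHL25 had 8.64, 6.68, 4.55 and 3.70 CPM. SLAIN1 had 0.704, 0.454, 0.173 and 0.0888 CPM, so its closeness rests on the added 0.5: its fitted log2 fold change was -2.14, against -0.81 for ALDH1A3. The distance rests on 4 libraries and is a description only.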

How the data were processed

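Per the file headers, the authors deposited 1 table of expected counts per gene for each library, not scaled to depth; 93.6% of values were whole numbers. Per the submitters' processing notes, STAR 2.7.2b and RSEM 1.3.1 were used with GRCh37; the annotation release and strand setting are not given in the sources used here. Groups came from the sample titles. Symbols matched 39538 of 57773 IDs and all 9 members. Expected counts were rounded to whole numbers, and edgeR 4.0.16 (R 4.3.3) was run with filterByExpr, TMM factors (0.962 to 1.05) and the robust quasi-likelihood F-test, resistant against untreated, with Benjamini-Hochberg adjustment over all 16090 tested genes and a threshold of 0.05. On simulated counts the test called 10% of 1.5-fold, 36% of 2-fold and 98% of 4-fold changes. Changes of the size of most members here can thus be missed. The simulation gave all genes the same spread and changed only a small part of its 15849 genes. It therefore had only 129 calls, against 5463 in the data, and its shares called need not hold for the data. CPM use TMM-scaled library sizes, and an SD is over 2 libraries. GENCODE 29, of another build (GRCh38), gave only chromosome, gene order, overlap and length, and upstream windows are RefSeq's on GRCh38.p14.

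The members and lists were chosen with earlier results of these data known. Named genes were all 9 members, per list the called genes with the lowest adjusted p (4 at most) and the most abundant ones not called (2 at most), and the 3 genes closest to the called member with the highest level; cell type markers were named freely. A few genes that this rule chose are not reported here. Alternatives were other scalings (RLE, upper-quartile), filters, a threshold of 0.01, DESeq2 1.42.0, limma-voom (limma 3.58.1), edgeR's newer form, the replicate number as a block, each library left out, raw counts for shares and, added after the data were seen, merged exon lengths.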

Additional observations from a re-analysis of the deposited data

How the results depend on the processing

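ALDH1A3 and RARG were called under RLE and upper-quartile scaling, both other filters, limma-voom, DESeq2, the newer form of edgeR's test and a threshold of 0.01. Of the members' log2 fold changes under these settings, the replicate block and left-out libraries, 96 kept their sign and call, 5 turned in sign, all of RXRA or RXRB, 1 lost a call (ALDH1A3) and 1 gained one (DHRS3). RXRB was 0.000166 with upper-quartile scaling and 0.00689 with the stricter filter (1 CPM in 2 libraries), and -0.062 to 0.0267 with a library left out; RXRA was -0.0534 to 0.0863. Leaving out a library gave 2832 to 5041 calls over all genes (1510 to 2548 higher, 1322 to 2493 lower), lowest without untreated replicate 1, and 1 to 3 calls among the members (0 to 2 lower). A lone library was assumed to vary like the other group. A threshold of 0.01 left 2832 calls, 1444 higher and 1388 lower. The labels tie same-numbered libraries by the number alone. The correlation of their deviations was -0.0325, and whether they share a batch was not tested. The replicate block gave 5275 calls, 2 among the members. From raw counts, the ALDH1A1 share was 91.98% in untreated and 96.23% in resistant cells, that of RARG 78.25% in resistant cells and that of RXRA 67% and 67.5%. Over merged exons, ALDH1A1 had 95.87% in untreated cells, RARG 69.13% and 76.85%, and RXRA 41.79% and 42.38%. RARB had too few counts for a test.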
